A study of Mus musculus with 10 samples.

Results

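The macrophage and monocyte genes are a list of 39 genes, chosen by symbol, that mark tumor macrophages and the blood monocytes they come from, or that carry out their work. All 39 were in the deposited count table of 55401 genes, and 36 of them passed the filter on low counts that left 17464 genes for testing. The 3 that did not pass were Marco, Timd4 and Lilrb4a, which are described with their role groups.

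Macrophages are phagocytes that take up dying cells, debris and antibody-coated particles, and those in tumors arise from monocytes entering through the blood and from cells already resident in the tissue. Their survival depends on the receptor Csf1r and its ligands Csf1 and Il34, and their identity depends on transcription factors, of which PU.1 (the product of Spi1) is the best known. Tumor macrophages are often sorted by the genes they carry, such as lipid-handling genes (Trem2, Apoe, Spp1, Gpnmb), surface receptors of tissue-resident cells (Mrc1, Cd163, Lyve1, Folr2) and genes of alternative activation (Chil3, Retnla).

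RNA was sequenced from 10 flank tumors of KPN1.1, a mouse lung adenocarcinoma line, grown in male C57BL/6J mice that were obese from a high-fat diet and were 7 to 17 weeks old when 75000 cells were injected under the skin. Of these, 5 tumors came from mice given liraglutide, an agonist of the glucagon-like peptide receptor used against diabetes and obesity, at 0.2 μg per gram of body weight each day into the peritoneum, and 5 from mice given the phosphate-buffered saline (PBS) vehicle. Injections began once a tumor could be felt, and tumors were taken between days 19 and 22 after implantation. RNA came from a frozen fragment of whole tumor, so host and cancer cells were measured together, all tumors grew from 1 implanted line in immunocompetent hosts outside the lung, and lean mice were not part of the sequenced set. The tumors are called vehicle 1 to 5 and liraglutide 1 to 5, and are taken to come from separate mice, so p-values below measure the spread between these tumors.

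Depth was similar in both groups. Total counts were between 9927942 and 14480593 per vehicle tumor and between 10336934 and 13105261 per liraglutide tumor, so 3 counts, the least taken here as a signal, were worth between 0.207 and 0.315 CPM (counts per 1000000 of a library total scaled by TMM, which adjusts for differences in composition between libraries). Mitochondrially encoded genes took between 1.51% and 1.95% of the counts. Across all 17464 genes the edgeR quasi-likelihood test called 0 at an adjusted p under 0.05, and limma-voom called 0. DESeq2, fitted to every gene with at least 1 count, tested 35103 genes and called 52.

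The promoters of 4 members are shown because PU.1, itself a member of the list, is known to bind the letters GAGGAA in macrophage genes, and these 4 are 2 core macrophage markers and 2 uptake receptors that did not follow them from tumor to tumor, as described below. Each line holds the 250 bases before the start of the gene, 5′ to 3′ on the gene's own strand, from RefSeq on GRCm38.p6, with capitals on every GAGGAA or its reverse complement TTCCTC.
Cd68 (chr11:69666171-69666420, minus strand): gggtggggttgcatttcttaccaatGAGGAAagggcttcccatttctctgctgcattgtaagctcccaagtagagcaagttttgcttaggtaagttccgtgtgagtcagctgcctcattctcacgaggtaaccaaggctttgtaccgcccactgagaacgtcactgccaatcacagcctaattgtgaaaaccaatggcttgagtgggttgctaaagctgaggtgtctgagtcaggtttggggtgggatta
Fcgr1 (chr3:96293970-96294219, minus strand): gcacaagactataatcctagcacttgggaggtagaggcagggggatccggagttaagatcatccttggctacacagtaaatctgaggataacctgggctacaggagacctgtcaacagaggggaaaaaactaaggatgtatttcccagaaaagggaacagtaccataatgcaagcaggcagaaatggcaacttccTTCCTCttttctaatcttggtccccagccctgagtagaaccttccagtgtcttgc
Mrc1 (chr2:14229164-14229413, plus strand): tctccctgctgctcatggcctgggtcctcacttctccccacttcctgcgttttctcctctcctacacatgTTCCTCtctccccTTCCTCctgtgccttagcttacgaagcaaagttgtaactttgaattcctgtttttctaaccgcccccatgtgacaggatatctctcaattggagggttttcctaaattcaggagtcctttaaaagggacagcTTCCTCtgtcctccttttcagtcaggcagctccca
Cd163 (chr6:124304401-124304650, plus strand): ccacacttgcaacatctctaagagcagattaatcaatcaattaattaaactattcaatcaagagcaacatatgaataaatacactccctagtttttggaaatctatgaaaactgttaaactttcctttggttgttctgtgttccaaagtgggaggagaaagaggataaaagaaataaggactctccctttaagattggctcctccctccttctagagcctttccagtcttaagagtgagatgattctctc

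Cd68 and Fcgr1 held 1 match each, Mrc1 held 3 and Cd163 held 0. Of the 27 members with a promoter entry, 13 (48.15%) held at least 1 match in this window, and 25.85% of all 27025 genes with an entry did so. A match of 6 letters is a description of the sequence and does not show binding.

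The question put to the list was whether the RNA of macrophages and monocytes differed between liraglutide-treated and vehicle-treated tumors. No member passed the adjusted threshold: 0 of 36 had an edgeR adjusted p under 0.05, against 0% of all genes tested, and limma-voom also called 0 members. DESeq2 gave an adjusted p to only 4 of the 36, its filter leaving it undefined for the other 32, and called 0 of those 4. Adjusted p-values of the members lay between 0.506 and 0.991. Positive log2 fold changes (liraglutide over vehicle) were found for 27 of the 36, against 47.4% of all genes, and the median of the members was 0.16 against -0.017 for all genes. This median was 0.080 without vehicle 1 and 0.088 without liraglutide 3, and 0.30, 0.26 and 0.25 without vehicle 4, liraglutide 1 and liraglutide 2. In RNA from bulk tissue, a larger number of macrophages and more RNA per macrophage cannot be told apart.

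At an unadjusted p under 0.05, 3 members were higher with liraglutide (Csf1, Cx3cr1 and C5ar1), against 3.97% of all genes, and 2 were lower (Cd163 and Lyve1), against 5.62%. The groups overlapped for every tested member, so 0 of 36 were without overlap, against 1.49% of all genes. Both counts depended on single tumors. The count of 3 became 0 without vehicle 1, vehicle 2 or liraglutide 3, became 1 without liraglutide 4, and became 6 without liraglutide 2. The count of 2 became 0 without vehicle 3, liraglutide 1, liraglutide 3 or liraglutide 4, and became 1 without vehicle 2, liraglutide 2 or liraglutide 5.

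**Figure D1:**
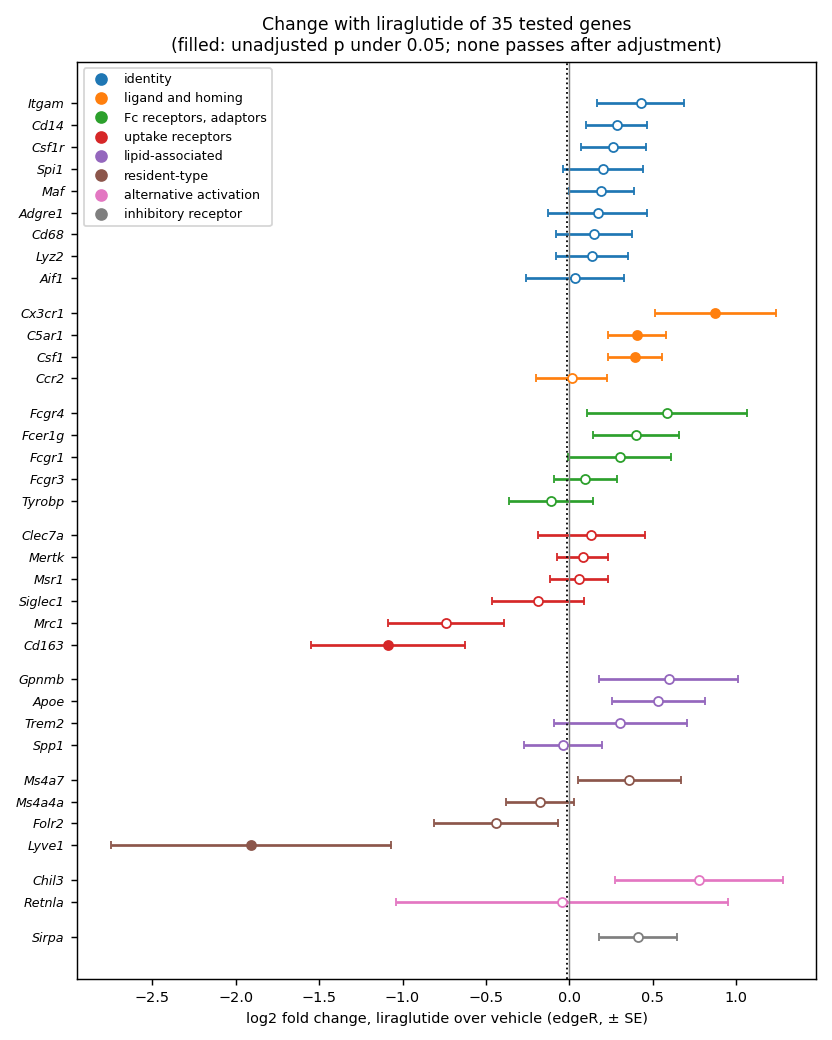
Log2 fold change of 35 tested genes (x axis, liraglutide over vehicle, edgeR, bars are standard errors), grouped by role, with the dotted line at the median of all genes, -0.017. Filled points mark the 5 genes with an unadjusted p under 0.05, and 26 of the 35 points lie above 0.

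The identity genes are those by which macrophages are usually recognized. All 9 were tested and all 9 had a positive log2 fold change under the main scaling, from 0.035 to 0.43 with a median of 0.19, but none had an unadjusted p under 0.05. Relative to the core markers described below, 4 of the 6 that could be tested were below 0. All 6 were above the median of all genes on that scale, -0.21, which compares them with all genes and not with the core markers. The smallest edgeR p among the 9 under the main scaling was 0.129, of Itgam.

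Adgre1, which encodes the adhesion receptor most often used to stain mouse macrophages, read 14.6, 12.98, 19.9, 22.2 and 15.7 CPM in vehicle 1 to 5 and 10.97, 10.5, 30.8, 18.7 and 24.9 CPM in liraglutide 1 to 5. The liraglutide tumors held both the lowest and the highest values, and the groups overlapped fully. For Adgre1 the log2 fold change was 0.17 ± 0.30 (SE, edgeR, adjusted p = 0.861), and it was -0.061 without liraglutide 3.

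Csf1r, the receptor that macrophages need to survive, read 37.4, 31.0, 48.2, 49.4 and 42.4 CPM in vehicle 1 to 5 and 39.9, 35.6, 70.8, 49.9 and 53.6 CPM in liraglutide 1 to 5. Of the liraglutide tumors, 3 lay above every vehicle tumor, 1 of them by a wide margin, while liraglutide 1 and 2 lay among the lower vehicle values. Its log2 fold change was 0.26 ± 0.19 (SE, edgeR, adjusted p = 0.662), and it was 0.11 without liraglutide 3.

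Cd68, a glycoprotein of the phagocyte lysosome, read 11.8, 13.1, 21.8, 23.3 and 21.8 CPM in vehicle 1 to 5 and 19.1, 14.1, 25.8, 20.03 and 22.7 CPM in liraglutide 1 to 5. Vehicle 1, vehicle 2 and liraglutide 2 were low and the other 7 tumors formed a common range. For Cd68 the log2 fold change was 0.15 ± 0.23 (SE, edgeR, adjusted p = 0.836), and without vehicle 1 it was 0.022.

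Lyz2, the lysozyme of myeloid cells, was the most abundant of the identity genes per length of transcript, at 52.8 CPM per kilobase on average. It spanned 122 to 223 CPM in vehicle tumors and 133 to 245 CPM in liraglutide tumors, with a log2 fold change of 0.13. Itgam (an integrin chain of the complement receptor), Cd14 (a coreceptor for bacterial lipopolysaccharide), Spi1 and Maf (transcription factors) and Aif1 (an actin-bundling protein) had log2 fold changes of 0.43, 0.28, 0.20, 0.19 and 0.035. The value of Itgam is uncertain, because 59.9% of its 100-base windows are also found in transcripts of the gene Gm49368, which itself had 0 to 2 counts per tumor.

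The ligand Csf1 and the receptors that bring monocytes into tissue include the 3 members already counted as higher at an unadjusted p under 0.05, against 3.97% of all genes. All 4 had positive log2 fold changes, against 47.4% of all genes, with a median of 0.40 against -0.017. None of the 3 kept such a p when each tumor was left out in turn.

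Csf1, the growth factor that binds Csf1r and that macrophages, fibroblasts and cancer cells can all make, read 15.3, 16.8, 25.8, 21.1 and 26.4 CPM in vehicle 1 to 5 and 30.7, 25.0, 28.9, 27.3 and 26.6 CPM in liraglutide 1 to 5. The liraglutide tumors lay close together, 4 of the 5 above every vehicle tumor, whereas vehicle tumors spread from the lowest value to nearly the liraglutide level. The mean was 27.7 ± 2.18 CPM with liraglutide and 21.1 ± 5.07 CPM with vehicle (SD, n = 5 each). For Csf1 the log2 fold change was 0.39 ± 0.16 (SE, edgeR, p = 0.0326, adjusted p = 0.506), with a two-sided exact permutation p of 0.0317, where 0.00794 is the smallest that 5 against 5 allow. Leaving out single tumors gave log2 fold changes from 0.30 to 0.50, with unadjusted p up to 0.0790.

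Cx3cr1, the fractalkine receptor of patrolling monocytes and many tissue macrophages, read 4.84, 5.98, 4.30, 10.8 and 9.12 CPM in vehicle 1 to 5 and 6.997, 7.02, 21.1, 13.6 and 15.6 CPM in liraglutide 1 to 5. Liraglutide 3, 4 and 5 lay above every vehicle tumor, and liraglutide 1 and 2 lay inside the vehicle range. Its log2 fold change of 0.87 ± 0.36 (SE, edgeR, p = 0.0332, adjusted p = 0.508) was the highest of the 36 members, and the exact permutation test gave p = 0.0873. Without liraglutide 3 it was 0.63 and its unadjusted p was above 0.05.

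C5ar1, the receptor for the complement fragment C5a, read 5.11, 5.88, 8.40, 5.44 and 6.27 CPM in vehicle 1 to 5 and 8.81, 7.18, 8.95, 9.07 and 7.07 CPM in liraglutide 1 to 5. Vehicle 3 lay among the liraglutide tumors, and the other 4 vehicle tumors lay below all of them. For C5ar1 the log2 fold change was 0.40 ± 0.17 (SE, edgeR, p = 0.0400, adjusted p = 0.515), with an exact permutation p of 0.0317. Leaving out single tumors gave unadjusted edgeR p from 0.00701 to 0.0946.

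Ccr2, the receptor through which inflammatory monocytes follow Ccl2 out of the marrow, read 13.5, 15.6, 21.6, 28.8 and 18.0 CPM in vehicle 1 to 5 and 16.8, 15.02, 24.3, 19.6 and 22.8 CPM in liraglutide 1 to 5. The groups covered the same range, and the highest tumor was a vehicle tumor. For Ccr2 the log2 fold change was 0.014 ± 0.21 (SE, edgeR, adjusted p = 0.987). It turned negative without vehicle 1, vehicle 2, vehicle 5, liraglutide 3 or liraglutide 5, the lowest value being -0.094.

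**Figure D2:**
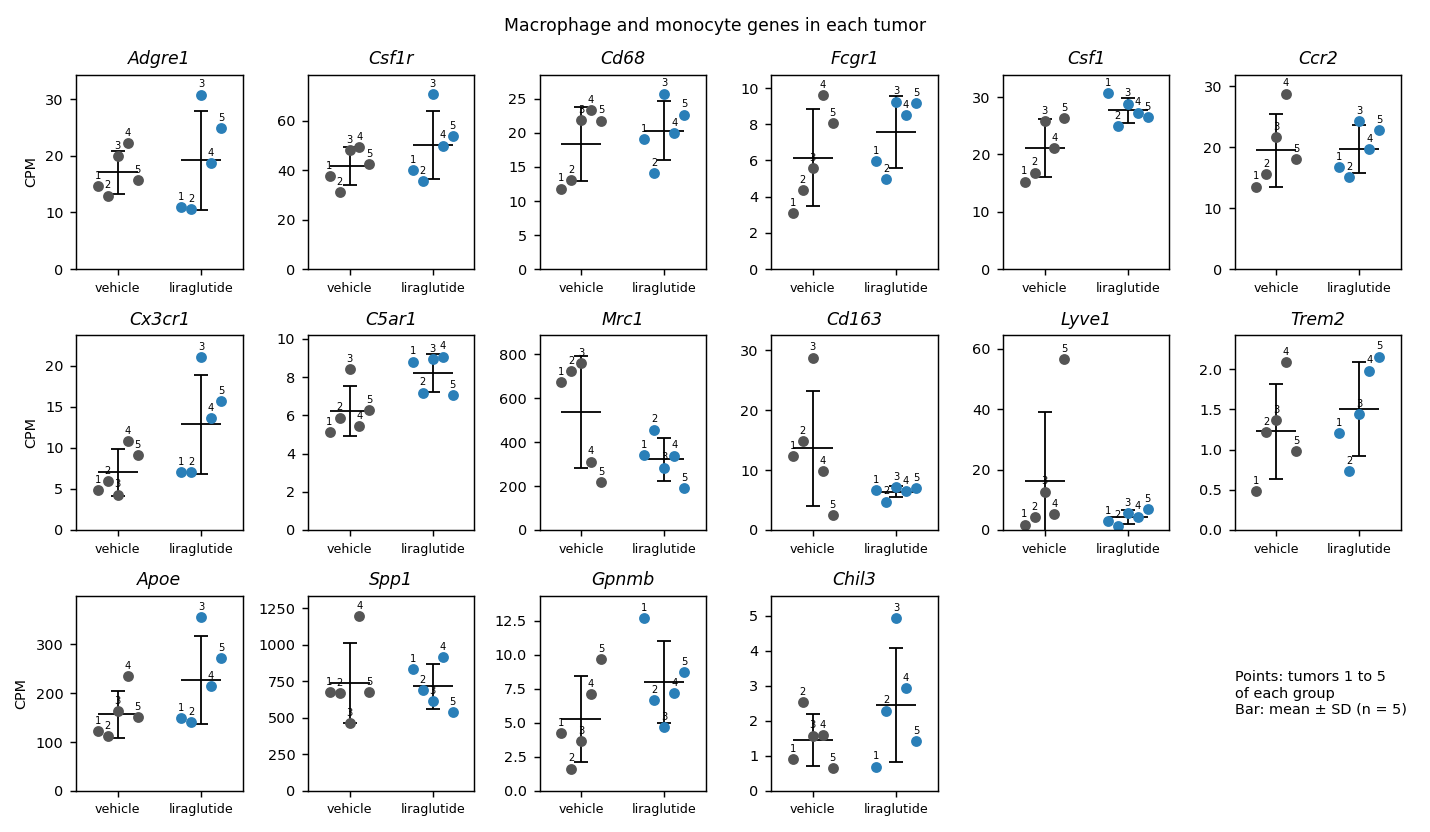
CPM (y axis, from 0) of 16 macrophage and monocyte genes in each tumor, with tumor numbers beside the points and bars at the mean ± SD of 5 tumors. Csf1, Cx3cr1 and C5ar1 sit higher in most liraglutide tumors, Cd163 is lower there than in 4 of the 5 vehicle tumors, and the vehicle mean of Lyve1 is set by vehicle 5 at 56.5 CPM.

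The receptors for antibodies and their signaling adaptors had 4 positive and 1 negative log2 fold changes, with a median of 0.30 and no unadjusted p under 0.05. Fcgr1, the high-affinity receptor for immunoglobulin G, read 3.11, 4.36, 5.56, 9.62 and 8.06 CPM in vehicle 1 to 5 and 5.96, 4.98, 9.25, 8.50 and 9.16 CPM in liraglutide 1 to 5. The highest tumor was vehicle 4, and all liraglutide tumors lay inside the vehicle range. Its log2 fold change was 0.30 ± 0.31 (SE, edgeR, adjusted p = 0.747), from 0.13 without vehicle 1 to 0.53 without vehicle 4.

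Fcgr4 and Fcgr3, activating receptors of lower affinity, had log2 fold changes of 0.59 and 0.095, and Fcer1g, the chain through which all 3 receptors signal, had 0.40. Tyrobp, the adaptor used by Trem2 and other receptors, had -0.11 and lay between 7.60 and 17.2 CPM over all tumors. Fcgr3 shares 2.11% of its 100-base windows with other genes, mostly Fcgr2b.

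The uptake receptors split. Of the 8, Marco and Timd4 were too low to test, 3 had positive and 3 negative log2 fold changes, and the median was -0.065. Marco, a scavenger receptor of lung and splenic macrophages, had 1 count in all 10 tumors together, and Timd4, a phosphatidylserine receptor of resident macrophages, had 0 to 6 counts per tumor.

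Mrc1, the mannose receptor, was the most abundant uptake receptor at 54.9 CPM per kilobase, against 6.22 CPM per kilobase for Csf1r and 5.15 for Adgre1. It read 673, 724, 761, 312 and 217 CPM in vehicle 1 to 5 and 340, 457, 284, 339 and 190 CPM in liraglutide 1 to 5. Vehicle 1, 2 and 3 stood above all other tumors, while vehicle 4 and 5 lay among the lower liraglutide tumors, so the groups overlapped. For Mrc1 the log2 fold change was -0.74 ± 0.35 (SE, edgeR, p = 0.0564, adjusted p = 0.529), with an exact permutation p of 0.159. It ranged from -0.94 without vehicle 5 to -0.58 without vehicle 3.

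Cd163, the scavenger receptor for hemoglobin bound to haptoglobin, read 12.4, 14.8, 28.8, 9.87 and 2.53 CPM in vehicle 1 to 5 and 6.65, 4.73, 7.20, 6.42 and 6.997 CPM in liraglutide 1 to 5. The liraglutide tumors were tightly grouped at 6.402 ± 0.980 CPM (SD, n = 5), below 4 vehicle tumors, but the lowest of all 10 was vehicle 5. For Cd163 the log2 fold change was -1.09 ± 0.46 (SE, edgeR, p = 0.0377, adjusted p = 0.513), with an exact permutation p of 0.254. Without vehicle 3 it was -0.62, with an unadjusted p above 0.05, and limma-voom gave -0.69.

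Mertk, a receptor kinase that recognizes dying cells, Msr1, a scavenger receptor for modified lipoproteins, and Clec7a, which binds fungal glucans, had log2 fold changes of 0.080, 0.057 and 0.13. Siglec1, a receptor for sialic acids, had -0.19. Mertk was the steadiest of this group, between 12.97 and 19.8 CPM over all 10 tumors, whereas Clec7a ran from 13.8 to 47.2 CPM within the vehicle tumors alone.

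The lipid-associated genes had 3 positive and 1 negative log2 fold changes, with a median of 0.42. Apoe, a lipid carrier that macrophages secrete, read 123, 112, 164, 235 and 151 CPM in vehicle 1 to 5 and 149, 140, 357, 215 and 273 CPM in liraglutide 1 to 5. Liraglutide 3 and 5 stood above all vehicle tumors and the other 3 lay inside the vehicle range. Its log2 fold change was 0.53 ± 0.28 (SE, edgeR, adjusted p = 0.561), and without liraglutide 3 it was 0.31.

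Trem2, a lipid-sensing receptor, was the scarcest tested member per length, at 0.276 CPM per kilobase. It read 0.484, 1.22, 1.36, 2.09 and 0.977 CPM in vehicle 1 to 5 and 1.21, 0.735, 1.44, 1.98 and 2.16 CPM in liraglutide 1 to 5, which was 7 to 29 counts per tumor. The values of both groups were interleaved. For Trem2 the log2 fold change was 0.31 ± 0.40 (SE, edgeR, adjusted p = 0.803), from 0.087 without vehicle 1 to 0.61 without vehicle 4.

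Spp1, osteopontin, which carcinoma cells as well as macrophages secrete, was the most abundant member at 255 CPM per kilobase. It read 676, 668, 463, 1196 and 676 CPM in vehicle 1 to 5 and 831, 687, 612, 912 and 537 CPM in liraglutide 1 to 5. All liraglutide tumors lay inside the vehicle range, whose lowest and highest values came from vehicle 3 and 4. For Spp1 the log2 fold change was -0.039 ± 0.23 (SE, edgeR, adjusted p = 0.966), 0.0049 when scaled by library size alone and 0.21 without vehicle 4.

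Gpnmb, a membrane glycoprotein of lipid-laden macrophages and melanocytes, read 4.21, 1.62, 3.67, 7.11 and 9.69 CPM in vehicle 1 to 5 and 12.7, 6.69, 4.70, 7.18 and 8.71 CPM in liraglutide 1 to 5. Only liraglutide 1 exceeded every vehicle tumor. For Gpnmb the log2 fold change was 0.59 ± 0.42 (SE, edgeR, adjusted p = 0.645), from 0.37 without liraglutide 1 to 0.94 without vehicle 5.

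Genes often used for tissue-resident macrophages had 1 positive and 3 negative log2 fold changes, with a median of -0.31. Lyve1, a hyaluronan receptor of perivascular macrophages and of lymphatic endothelium, read 1.73, 4.16, 12.7, 5.10 and 56.5 CPM in vehicle 1 to 5 and 2.94, 1.39, 5.53, 4.44 and 6.997 CPM in liraglutide 1 to 5. Vehicle 5 stood far above every other tumor, and the remaining 9 overlapped. The log2 fold change of -1.91 ± 0.84 (SE, edgeR, p = 0.0434, adjusted p = 0.515) was the lowest of the members, with an exact permutation p of 0.325, and without vehicle 5 it was -0.45, with an unadjusted edgeR p above 0.05. Limma-voom gave -0.99.

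The other lymphatic endothelial markers gave mixed readings in vehicle 5. Flt4, the growth factor receptor of lymphatic vessels, read 6.68 CPM there and 6.04 to 24.6 CPM over all tumors, Pdpn, a mucin-like surface protein, read 2.69 CPM, and Prox1, the lymphatic transcription factor, read 1.79 CPM, its highest value, the next tumor being at 1.04 CPM. Ccl21a, a chemokine of lymphatic vessels, read 0.733 CPM, the highest of the vehicle tumors, with liraglutide 1 above it at 0.950 CPM. Cd163 and Mrc1 were near their lowest in the same tumor. Whether vessels or macrophages carried the Lyve1 of vehicle 5 was not tested.

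Folr2, a folate receptor, had a log2 fold change of -0.44, and its highest value, 8.40 CPM, came from vehicle 3, which was also the highest tumor for Cd163, Mrc1 and Siglec1. Ms4a4a and Ms4a7, membrane proteins of related sequence, had -0.18 and 0.36, on opposite sides of 0.

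The genes of alternative activation were scattered between tumors. Chil3, a chitinase-like lectin, read 0.898, 2.53, 1.57, 1.59 and 0.652 CPM in vehicle 1 to 5 and 0.691, 2.29, 4.93, 2.93 and 1.41 CPM in liraglutide 1 to 5. Liraglutide 3 and 4 lay above all vehicle tumors and the rest were mixed. For Chil3 the log2 fold change was 0.78 ± 0.50 (SE, edgeR, adjusted p = 0.620), and 0.35 without liraglutide 3. Retnla, a secreted protein of alternatively activated cells, ran from 0.0691 to 4.72 CPM in vehicle tumors and from 0.0864 to 4.24 CPM in liraglutide tumors, so its log2 fold change of -0.044 had a standard error of 0.99.

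Of the inhibitory receptors, Sirpa, which binds Cd47 and restrains phagocytosis, spanned 27.9 to 52.7 CPM in vehicle tumors and 35.5 to 72.4 CPM in liraglutide tumors, 3 of which lay above all vehicle tumors. Its log2 fold change was 0.41 ± 0.23 (SE, edgeR, adjusted p = 0.584). Lilrb4a had 1 count in all tumors together. It shares 33.1% of its 100-base windows with other genes, 29.6% with Gm49339, which had 0 counts in every tumor. Lilrb4b, a receptor of the same family, had 129 to 247 counts per tumor. How reads of these genes were divided in the counting was not tested.

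Some of the members went up and down together from tumor to tumor, and others did not. A core level, the geometric mean CPM of Adgre1, Csf1r, Cd68 and Fcgr1, was 12.1, 12.5, 18.7, 22.5 and 18.7 in vehicle 1 to 5 and 15.2, 12.95, 27.1, 20.2 and 23.2 in liraglutide 1 to 5. The highest tumor held 2.23 times the level of the lowest, and each group had both low and high tumors. On the log2 scale the mean was 4.25 ± 0.44 with liraglutide and 4.04 ± 0.39 with vehicle (SD, n = 5 each), a difference of 0.21. That difference is smaller than the spread within either group. It was 0.10 without vehicle 1, 0.11 without vehicle 2 and 0.086 without liraglutide 3, and 0.33 and 0.36 without vehicle 4 and liraglutide 2.

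Vehicle 1 was the lowest of all 10 tumors for 15 of the 36 tested members, and vehicle 2 and liraglutide 2 were the lowest for 6 each. Liraglutide 3 was the highest for 11, vehicle 4 for 6 and vehicle 3 for 5. The geometric mean of the pan-leukocyte list was 25.7, 22.2, 34.9, 48.8 and 48.4 CPM in vehicle 1 to 5 and 34.96, 32.2, 49.6, 44.4 and 50.8 CPM in liraglutide 1 to 5, and its log2 difference between the groups was 0.28. Vehicle 1 and vehicle 2 were the lowest for these general leukocyte genes too, but vehicle 3 and vehicle 5, with equal core levels of 18.7 CPM, differed in them. The part of leukocyte content in the group differences of single members was not tested.

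**Figure D3:**
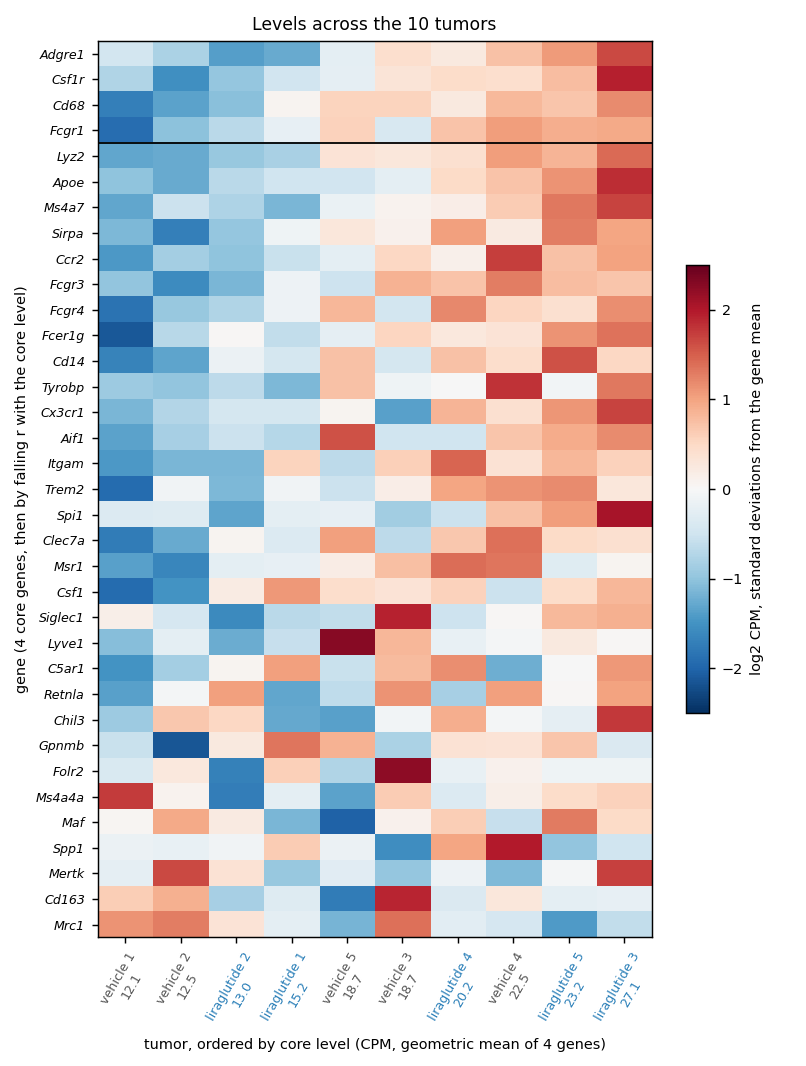
Log2 CPM of 35 genes (rows) in the 10 tumors (columns, ordered by core level, which is printed under each tumor in CPM), as standard deviations from each gene's mean. Most rows run from blue at 12.1 CPM to red at 27.1 CPM, and Mrc1 at the bottom runs the other way.

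Across the 10 tumors, 11 of the 32 members outside the core had a Pearson r over 0.8 with the core level on the log2 scale, against 6.74% of 17460 genes, and 6 did so without vehicle 1 and vehicle 2, the tumors farthest from the median core level, against 2.93% of genes over the same 8 tumors. Of the 32, 10 had a permutation p under 0.05 after adjustment over all 17460 genes, against 14.2% of genes. All these values share the same libraries and depths. Lyz2 followed the core level most closely, with r = 0.99 and Spearman rho = 0.98 (10 tumors, permutation p = 1e-05, the smallest that 100000 shuffles can give, adjusted p = 0.00970), and r was 0.98 without the 2 farthest tumors. Apoe had r = 0.94 and rho = 0.99 (permutation p = 1e-05, adjusted p = 0.00970), and r = 0.91 without those tumors.

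Ms4a7, Sirpa and Ccr2 came next, with r of 0.92, 0.91 and 0.91. For Ms4a7, rho was 0.95 (permutation p = 0.00014, adjusted p = 0.0172) and r without the 2 farthest tumors was 0.94. For Sirpa these values were rho = 0.88 (permutation p = 0.00039, adjusted p = 0.0208) and r = 0.86, and for Ccr2 they were rho = 0.94 (permutation p = 0.00035, adjusted p = 0.0196) and r = 0.86.

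Only 4 members had an r below 0, against 50.9% of all genes, among them Mrc1, Cd163 and Mertk. Mrc1 had r = -0.67 and rho = -0.67 (10 tumors, permutation p = 0.0374, adjusted p = 0.114), and r = -0.43 without vehicle 1 and vehicle 2, so the relation did not pass the adjusted threshold and rested in part on those tumors. With the group means removed, r was -0.64. Cd163 had r = -0.14 and rho = -0.091 (permutation p = 0.701, adjusted p = 0.805), and Spp1 had r = 0.026 and rho = -0.16 (permutation p = 0.942, adjusted p = 0.965). Without the 2 farthest tumors, r was 0.19 for Cd163 and -0.041 for Spp1.

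**Figure D4:**
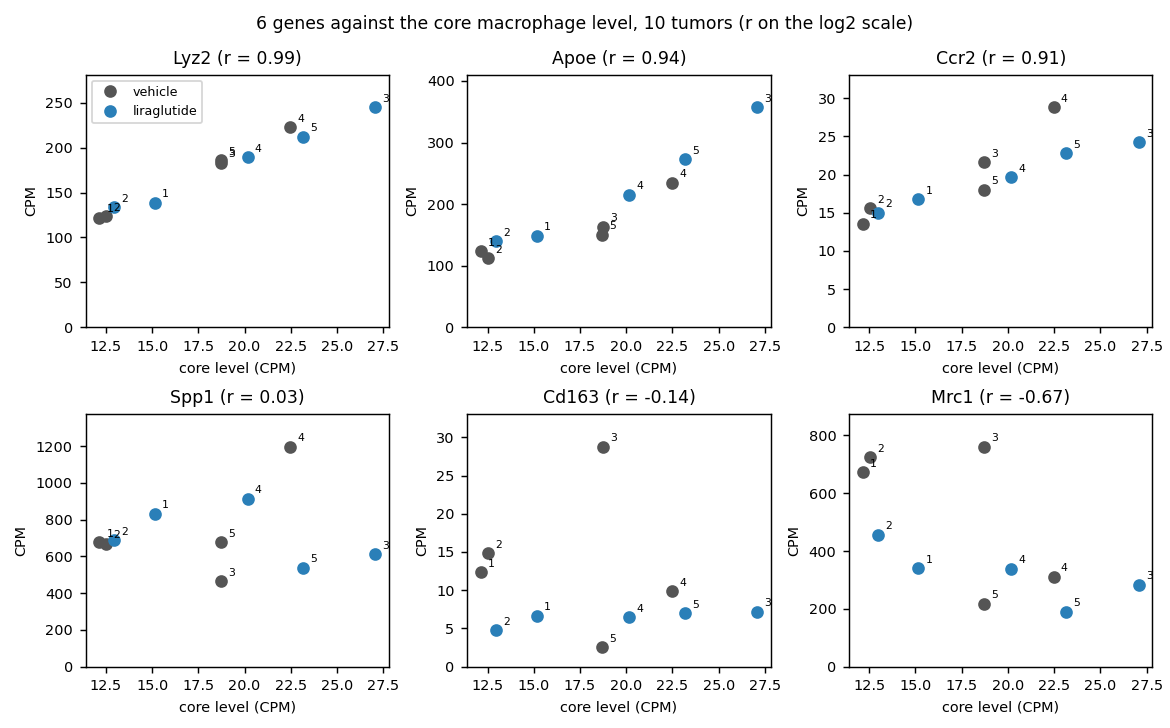
CPM of 6 genes (y axes, from 0) against the core level of each tumor (x axes, CPM), with tumor numbers and r on the log2 scale. Lyz2, Apoe and Ccr2 climb with the core level (r of 0.99, 0.94 and 0.91), Spp1 and Cd163 show no trend (0.026 and -0.14), and the 3 highest Mrc1 values belong to vehicle 1, 2 and 3.

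To ask whether the make-up of the macrophage RNA differed, apart from its amount, counts were tested again with each tumor scaled by its core level in place of the total. For a gene that other cells also carry, such as Csf1 or Spp1, a value on this scale mixes that source with the macrophage level. Which cells carried the Mrc1 RNA was not tested. The 4 core genes are fixed by this scaling and have no test of their own. A value of 0 on this scale means a change equal to that of the core markers, and the median of all genes moved to -0.21. Of 32 members 14 had positive and 18 negative log2 fold changes, with a median of -0.059. Of the 32, 25 lay above the median of all genes, but that compares members with all genes, as the first scaling does, and does not bear on make-up. No member passed (edgeR, 0 of 32 at an adjusted p under 0.05, against 0% of 17460 genes), with adjusted p from 0.877 to 0.992. At an unadjusted p under 0.05, 0 members were higher, against 1.02% of genes, and 2 were lower, against 1.84%.

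Those 2 were again Lyve1, at -2.09 ± 0.67 (SE, edgeR, adjusted p = 0.877), and Cd163, at -1.35 ± 0.47 (SE, edgeR, adjusted p = 0.877). Lyve1 was -0.73 without vehicle 5, with an unadjusted p above 0.05, whereas Cd163 kept an unadjusted p under 0.05 whichever tumor was left out, from -1.63 without vehicle 5 to -1.03 without vehicle 3. Mrc1 was at -0.94 ± 0.48 and Cx3cr1 at 0.60 ± 0.28 (SE, edgeR, adjusted p = 0.877 for both). Under each of the 4 other settings of this scaling Mrc1 also had an unadjusted p under 0.05, at -1.16 to -0.84, so that 3 members were lower, against 3.23% to 13.6% of all genes lower there, and 0 passed after adjustment. Csf1 and C5ar1, nominally higher under the first scaling, had 0.25 ± 0.26 and 0.21 ± 0.30 (SE) relative to the core markers.

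**Figure D5:**
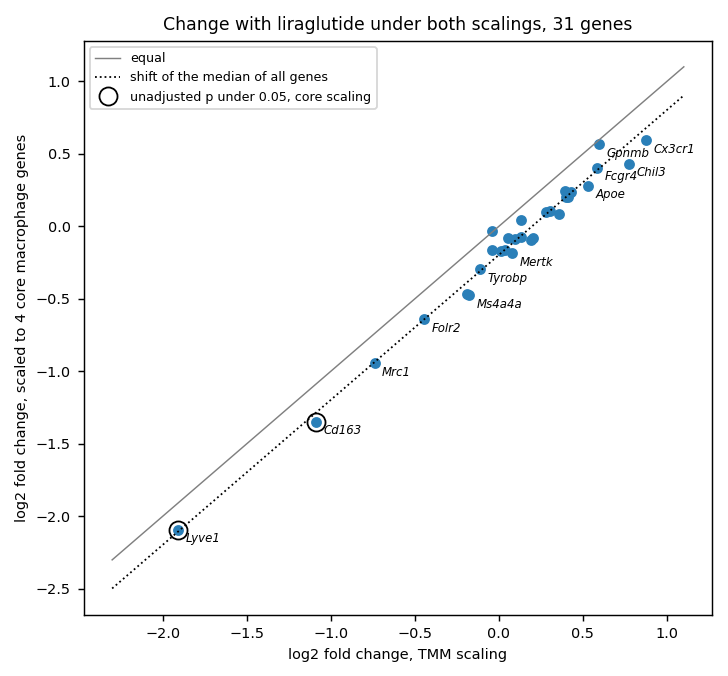
Log2 fold change of 31 genes (liraglutide over vehicle) scaled by the total (x axis, TMM) and by the 4 core macrophage genes (y axis), with the solid line at equality and the dotted line at the shift of the median of all genes. Most points lie along the dotted line, and the circled genes, Lyve1 at -2.09 and Cd163 at -1.35, have an unadjusted p under 0.05 under core scaling.

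Other genes of the same cells gave a similar picture by count. Among 40 further macrophage genes, 38 were tested, 28 had positive and 10 negative log2 fold changes with a median of 0.23, and 0 passed the adjusted threshold. At an unadjusted p under 0.05, 1 was higher, the fatty acid carrier Fabp5 at 0.58 (edgeR adjusted p = 0.512), and 2 were lower, of which the heme-degrading enzyme Hmox1 had the smaller p, against 3.97% and 5.62% of all genes. Hmox1 read 25.1 to 41.2 CPM in vehicle tumors and 15.2 to 28.3 CPM in liraglutide tumors, with a log2 fold change of -0.66 (edgeR adjusted p = 0.482). C1qa and C1qb, complement genes that macrophages make, were at 27.4 to 48.5 and 24.5 to 57.7 CPM in vehicle tumors and at 30.4 to 61.8 and 28.9 to 66.1 CPM in liraglutide tumors, with log2 fold changes of 0.23 and 0.26.

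Of 15 monocyte genes, 14 were in the count table and 11 were tested, 7 positive and 4 negative with a median of 0.20. At an unadjusted p under 0.05, 2 were higher, Ace and Spn, against 3.97% of all genes, and 0 were lower, against 5.62%. Spn was at 0.77 (edgeR adjusted p = 0.482). Ly6c2, the surface marker of inflammatory monocytes, was too low to test, at 2 to 19 counts per tumor. Ace, angiotensin-converting enzyme, which nonclassical monocytes and also endothelium carry, had the smallest p at 1.09 (edgeR adjusted p = 0.482), with 29.1 to 63.5 CPM in vehicle tumors and 58.3 to 136 CPM in liraglutide tumors. Plac8, found in monocytes and in epithelium, was at -0.45 (edgeR adjusted p = 0.609).

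Among 16 genes of macrophage recruitment and growth, 15 were tested, 8 positive and 7 negative with a median of 0.13. The alternative Csf1r ligand Il34 had a log2 fold change of -0.16, and Csf2, the granulocyte-macrophage growth factor, had -1.18 (edgeR adjusted p = 0.482) at no more than 4.09 CPM in any tumor. The shared receptor chain Csf2rb was at 0.34 (edgeR adjusted p = 0.531). Of 15 genes of classical activation, 12 were tested, 8 positive and 4 negative with a median of 0.071. Ptgs2, the inducible cyclooxygenase, was at -0.72 (edgeR adjusted p = 0.482), Cxcl9, an interferon-induced chemokine, was at 0.82 (edgeR adjusted p = 0.660), and Nos2, the inducible nitric oxide synthase, was at 0.41. Of 17 genes that signal below Fc receptors and Trem2, 14 were tested, 10 positive and 4 negative with a median of 0.32, and 0 had an unadjusted p under 0.05. The phosphatase Ptpn6 was at 0.53 (edgeR adjusted p = 0.529) and the kinase Lyn at -0.12 (edgeR adjusted p = 0.728).

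Markers of other cells in the fragments were read by the same counts. The 8 tested T and NK cell genes were all positive, with a median of 0.71 and summed levels of 6.08 to 30.1 CPM in vehicle and 9.59 to 38.2 CPM in liraglutide tumors. Neutrophil genes summed to 22.7 to 68.7 and 25.4 to 61.9 CPM. Most of that sum was Mmp9, at 15.6 to 59.0 CPM in vehicle and 16.8 to 53.9 CPM in liraglutide tumors. The defining neutrophil genes S100a8 and S100a9 had 5 to 46 and 2 to 49 counts per tumor, with log2 fold changes of 0.013 and -0.18. Ly6g had 0 counts in every tumor, which allows up to 0.315 CPM. Dendritic cell genes summed to 36.3 to 107 and 41.9 to 74.4 CPM. Keratinocyte genes summed to 8.36 to 17.6 CPM in vehicle and 6.65 to 200.5 CPM in liraglutide tumors, with 3 of 4 higher at an unadjusted p under 0.05, against 3.97% of all genes, and mast cell genes summed to 28.0 to 132 and 70.2 to 292 CPM. Most of the mast cell sum was the protease Mcpt4, with a log2 fold change of 1.31, whereas the other 3 of that list were at -0.060, -0.20 and -0.046 and the list median was -0.053. B cell genes were too low to test, at sums of no more than 5.21 CPM. Endothelial and fibroblast medians were 0.0061 and 0.060, the epithelial median was -0.23, the skeletal muscle median was 0.72 and the adipocyte median, over 3 tested genes, was -0.71. The lymphatic endothelial list summed to 11.9 to 20.6 CPM in vehicle and 10.5 to 28.9 CPM in liraglutide tumors. The part of these cells in the values of the macrophage and monocyte genes was not tested.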

How the data were processed

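RNA from 10 tumors (5 per group, grouped by sample title) was depleted of ribosomal RNA and sequenced in pairs. The authors aligned the reads with TopHat and Bowtie, summed them over genes in featureCounts, and deposited the raw counts without normalization. They left out samples at quality assessment. The study's text names GRCm39 and the labels name mm10 and GRCh38, so no coordinates are given for the counts. The annotation release, the strand setting and the handling of multiply mapped reads are not given in the sources used here, so overlapping and near-identical genes are uncertain. Identifiers were matched without version to GENCODE M39 (51731 of 55401, holding 98.31% of the counts) for symbols, exon lengths and shared 100-base windows.

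Genes were filtered (filterByExpr), scaled by TMM and tested with the edgeR 4.0.16 quasi-likelihood F test in R 4.3.3, with Benjamini-Hochberg adjustment over all genes and an adjusted threshold of 0.05. CPM are counts per 1000000 of the TMM-scaled total, and log2 CPM used a prior count of 2. A second fit used the core level as offset. The depth of 9927942 to 14480593 counts makes 3 counts worth 0.207 to 0.315 TMM-scaled CPM, which covers counting error only. Between tumors of a group the chi-square per gene was 9.38 to 86.7, so libraries of the same group were not duplicates of each other. Libraries of different groups were not compared in this way. Genes given in full are the 4 core genes, those with an unadjusted p under 0.05 or without overlap, the 3 largest and 3 smallest log2 fold changes, and Mrc1, Trem2, Apoe, Spp1 and Ccr2. Counts and medians over the list include 1 member that is not reported by name here or drawn in the figures. Of the other macrophage and monocyte lists, the gene with the smallest p in each direction is named, with defining markers. The lymphatic markers Pdpn, Flt4 and Ccl21a, the mast cell gene Mcpt4, the neutrophil gene Mmp9, the monocyte gene Spn and the receptor gene Lilrb4b were added after their values were seen. The members and lists were chosen with earlier results of these data known. Alternatives were DESeq2 1.42.0, limma-voom 3.58.1, other size factors, library size alone, every gene with at least 1 count, offsets from other leukocyte genes, the tumor number as a block and each tumor left out.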

Additional observations from a re-analysis of the deposited data

Results flagged for a closer look

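In 5 of the 72 groups of 5 tumors tested (36 genes, 2 groups each), 1 tumor lay apart from the other 4 by more than 0.71 of the whole range, the limit of Dixon's test. Chance marks about 1 in 20 such groups, which is 3.6 of 72. Lyve1 read 56.5 CPM in vehicle 5, where the next vehicle tumor read 12.7. Folr2 read 8.40 CPM in vehicle 3 (next 3.65), and Siglec1 read 15 CPM in the same tumor (next 8.70). Mertk read 19.6 CPM in vehicle 2 (next 14.8), and Msr1 read 37.2 CPM in liraglutide 4 (next 28.7).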

How the results depend on the processing

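The count of members past the adjusted threshold was 0 under every alternative run and without any single tumor, for both scalings, except that DESeq2 gave an adjusted p to only 4 of the 36 members and so could not call the other 32. DESeq2 called 52 of the 35103 genes it tested, where edgeR tested 17464, and the cause of the difference was not tested. The count of members lower at an unadjusted p under 0.05 was 0 with limma-voom. The all-gene split at that p was 694 higher and 981 lower with TMM and 990 higher and 619 lower with library size alone, which moved the all-gene median from -0.017 to 0.037.

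Leaving out each tumor, members higher at an unadjusted p under 0.05 numbered 0 to 6 and members lower 0 to 3, and relative to the core markers 0 to 1 and 2 to 3. Positive log2 fold changes numbered 21 to 30, the median of the members ran from 0.080 to 0.30 and the core difference from 0.086 to 0.36. Adgre1 ran from -0.061 to 0.34, Ccr2 from -0.094 to 0.21 and Spp1 from -0.16 to 0.21. Under other settings Spp1 was 0.0034 with limma-voom and 0.0049 with library size alone.

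Tumor numbers did not meet the condition for pairing, a correlation over 0.1 in every pair: the labels give no link between same-numbered tumors, and their deviations from the group means correlated over 0.1 in 3 of 5 pairs, with a mean of 0.26 against -0.068 between different numbers. Of the vehicle tumors 1, and of the liraglutide tumors 2, correlated best with their own number. With the number as a block, members higher at an unadjusted p under 0.05 numbered 7, against 7.5% of all genes, and members lower 1, Mrc1, against 7.31%, while Cd163 at -0.82 and Lyve1 at -1.13 had an unadjusted p above 0.05. Relative to the core markers under the block, 1 was higher, against 2.59%, and 3 were lower, against 13.6%: Lyve1 at -1.33, Cd163 at -1.01 and Mrc1 at -0.84. Under the block Spp1 was 0.0041, and no member passed after adjustment.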
